A study of Homo sapiens with 6 samples.

Results

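CAsE-PE cells, the malignantly transformed form of a human prostate epithelial line, were compared with themselves over continued arsenite exposure: the array at 30 weeks was set against the arrays at 33.5 and 35 weeks. The members are 3 of the 6 arrays of the series, taken by the exposure time in their titles, with 1 array on the early side and 2 on the later side. The other 3 arrays, of untreated RWPE-1, served as a reference. RWPE-1 is a prostate epithelial line immortalised with human papillomavirus 18, and it was profiled without arsenite at passages 18, 38 and 42. CAsE-PE was derived from RWPE-1 by unbroken culture in 5 µM sodium arsenite, and all 3 of its arrays carry the malignant phenotype label. Every group therefore shares the viral immortalisation, and every CAsE-PE array shares the arsenite. The comparison rests on 1 cell line, nothing in the labels says that the arrays came from separate cultures, and the passage number of the exposed cells is not given. The p-values therefore measure only the spread among the 3 RWPE-1 arrays and between the 2 later CAsE-PE arrays. That spread takes in any difference between passages 18, 38 and 42 and between 33.5 and 35 weeks, and may otherwise be technical.

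Inorganic arsenite binds protein thiols and raises oxidative stress. Cells answer through NRF2, a transcription factor that is held by KEAP1 and, once released, pairs with small MAF proteins on antioxidant response elements to raise haem oxygenase, glutathione enzymes and ferritin. Basal cells of stratified and prostate epithelium carry keratins 5 and 14, and squamous differentiation moves such cells to late products such as caspase-14 under the control of Notch receptors and factors such as ZNF750.

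All levels below are log2(intensity + 1) of 1 feature per gene, and every difference is on that log2 scale, so 1 unit is a 2-fold difference. Array medians were similar, between 91.7 and 97.2 intensity units. The basal keratin KRT5 was bright on all arrays, between 11.80 and 12.10, and the basal integrin ITGA6 lay between 10.94 and 11.39, while the luminal product KLK3 lay between 5.85 and 6.27. Over the 12 measured basal markers the median level was 10.52 at 30 weeks, 10.29 at 33.5 weeks and 10.46 at 35 weeks. The median levels of fibroblast, leukocyte, endothelial and neuroendocrine markers lay between 5.28 and 6.01 on every array, below the all-gene medians of 7.10 to 7.17. In the limma test described below, 0 of their 34 measured members were called at an adjusted p under 0.05. Of all genes 0.223% were called higher and 0.244% lower, so 0 of 34 is near that share. At an unadjusted p under 0.05, 1 of 10 fibroblast, 2 of 9 leukocyte, 0 of 8 endothelial and 1 of 7 neuroendocrine markers were higher and 0 lower. Of all genes 5.73% were higher and 6.58% lower at that level. No detection call accompanied the values, so a dim gene cannot be told from background. In these bulk samples fewer cells of a type and less RNA per cell cannot be told apart.

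The 30-week array differed from both later arrays by more genes than they differed from each other. Between 30 and 33.5 weeks 213 genes lay at least 2-fold apart, 142 higher and 71 lower at 30 weeks. Between 30 and 35 weeks 187 genes did, 78 higher and 109 lower at 30 weeks. The later arrays differed from each other in 26 genes. The untreated line gave numbers of the same order: RWPE-1 differed in 25 genes between passages 18 and 38, in 183 between passages 18 and 42 and in 108 between passages 38 and 42. All 3 CAsE-PE arrays were farther from RWPE-1 than from one another, with 921 to 1104 genes at least 2-fold apart at 30 weeks, 697 to 711 at 33.5 weeks and 840 to 845 at 35 weeks. No batch is given in the labels, and with 1 array at 30 weeks an array effect and an effect of exposure time cannot be told apart.

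**Figure D1:**
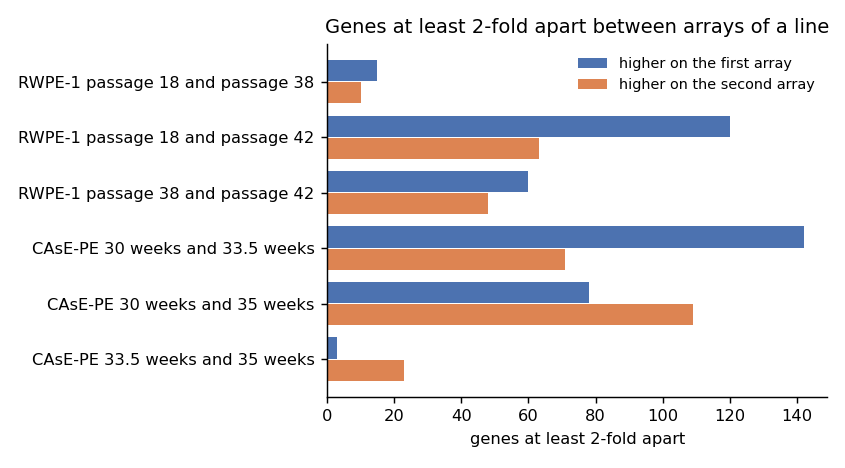
Genes at least 2-fold apart (x axis, number of genes) for each pair of arrays of the same line; the colours give the array on which the gene was higher. The pairs that hold the 30-week array have 213 and 187 such genes, against 26 for the later pair and 25 to 183 for the RWPE-1 pairs.

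A gene was taken to stand apart at 30 weeks when its 30-week value lay at least 1 log2 unit from the nearer later array and this distance was larger than the gap between the later arrays. By this description 61 genes stood apart as higher, 0.331% of the 18417 genes, and 50 as lower, 0.271%. Just inside the limit lay ZNF682 at -1.0 and SMAD9 at 1.01 from the nearer later array, and just outside it lay SVEP1 at -0.99 and CRABP2 at 0.99. The limma test used all 6 arrays in 3 groups, with 3 residual degrees of freedom, and assumes that the lone 30-week array varies like the others. At a Benjamini-Hochberg adjusted p under 0.05 it called 41 genes higher at 30 weeks, 0.223% of those tested, and 45 lower, 0.244%. Of these 86 genes 62 also stood apart. Calls counted in the lists below stand against these shares. Counts at an unadjusted p under 0.05 stand against 5.73% of all genes higher and 6.58% lower. The calls rest on both later arrays: without the 33.5-week array 1 gene was called, RXFP1, without the 35-week array 0 were, while 1641 genes had an unadjusted p under 0.05. Without the RWPE-1 passage 38 array 10 genes were called and without the passage 42 array 657 were. After quantile normalisation 53 were called. Of the genes described below, that setting ended the calls of HMOX1, FTL, NMRAL2P, KRT14, STC1, STEAP2, EDIL3, CHAF1B and CYP1A1, with adjusted p between 0.0515 and 0.0875. Among the same genes, leaving out the dimmest 33.3% ended the calls of HMOX1 and KRT14, each at 0.0543. This filter removed RXFP1, ANKRD22, PRTG, DMGDH, EDIL3, NMRAL2P, SULT1B1 and the called SNORD115 genes altogether. Their calls could therefore not be tested under it.

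The genes that stood apart as higher at 30 weeks mostly lay outside the untreated range as well. Of those 61 genes, 53 lay above all 3 RWPE-1 arrays at 30 weeks, 5 inside their range and 3 below it, while 28.4% of all genes lay above. Of the 50 lower genes, 43 lay below all RWPE-1 arrays, 2 inside the range and 5 above, while 42.1% of all genes lay below. Both sets were chosen by an extreme 30-week value, so shares above those of all genes follow in part from that choice. Among the lower genes, 21 were below the RWPE-1 range at 30 weeks and above it on both later arrays. RWPE-1 at passage 42, the oldest untreated passage measured, moved with the 30-week array. It lay above both other RWPE-1 arrays in 67.2% of the higher genes, against 45.7% of all genes, and below both in 68% of the lower genes, against 34.5% of all genes. The part of passage or culture state in the 30-week differences was not tested.

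Genes of the NRF2 response lay above their later levels at 30 weeks. Of 40 measured targets 31 lay above both later arrays and 8 below both, against 36.1% and 37.7% of all genes. Their median difference between 30 weeks and the later mean was 0.39, against -0.00333 over all genes, and their median difference between the later arrays was -0.01. Relative to the RWPE-1 mean, their median was 0.66 at 30 weeks, 0.24 at 33.5 weeks and 0.32 at 35 weeks. In the test 4 members were called, all higher, and 36 were not; at an unadjusted p under 0.05 it was 18 higher and 0 lower, against 5.73% and 6.58% of all genes.

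HMOX1, on chromosome 22, encodes the inducible haem oxygenase that degrades haem to biliverdin, iron and carbon monoxide. Its level was 9.74 at 30 weeks, 8.59 at 33.5 weeks and 8.09 at 35 weeks, against 6.41, 6.71 and 6.54 in RWPE-1 at passages 18, 38 and 42. All CAsE-PE arrays lay above RWPE-1, and the 30-week array lay highest. The 30-week value exceeded the later mean by 1.40 ± 0.22 (SE), and limma gave an adjusted p of 0.0415. GPX2, the selenium-dependent glutathione peroxidase of epithelia, had a level of 9.37 at 30 weeks, 7.95 at 33.5 weeks and 7.78 at 35 weeks, and of 8.52, 8.65 and 8.79 in RWPE-1. The later arrays lay below the untreated line and the 30-week array above it, with a difference of 1.5 ± 0.17 from the later mean (adjusted p = 0.0176). The genes around GPX2 on chromosome 14 shared a smaller shift, since the window of 25 neighbours that holds it had a median difference of 0.25. NMRAL2P, a transcribed pseudogene that NRF2 induces, had a level of 7.49 at 30 weeks against 5.59 and 6.07 later and 5.14, 5.36 and 5.70 in RWPE-1, a difference of 1.66 ± 0.26 (adjusted p = 0.0407). FTL, the ferritin light chain that stores iron, was at 11.49 at 30 weeks against 10.54 and 10.67 later and 10.20, 10.16 and 10.24 in RWPE-1, a difference of 0.88 ± 0.14 (adjusted p = 0.0451). For all 4 genes the 30-week array was the highest of the 6. Without the 33.5-week array the adjusted p of these 4 lay between 0.0946 and 0.254, without the 35-week array between 0.118 and 0.159, and without passage 38 between 0.0514 and 0.103. Without passage 18 the call of FTL was lost as well, at 0.0666. Over all settings tried, that of HMOX1 ranged from 0.0112 to 0.157 and its difference from 1.15 to 1.66.

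Other NRF2 targets shared the order without passing the test. ME1, the cytosolic malic enzyme that makes NADPH, was at 10.96 at 30 weeks, 10.26 at 33.5 weeks and 10.06 at 35 weeks, with all RWPE-1 arrays between 9.0 and 9.13 (adjusted p = 0.0723). The aldo-keto reductase AKR1C3 was at 7.82 against 6.45 and 6.90 later (adjusted p = 0.111), and AKR1C1 at 9.27 against 8.24 and 8.45 (adjusted p = 0.152). AKR1C genes are close copies of each other, so their probes may share signal. Some classical targets had smaller differences. NQO1, the quinone reductase, was at 11.05, 10.91 and 10.76 at 30, 33.5 and 35 weeks, all above the RWPE-1 values of 10.05 to 10.23. SLC7A11, the cystine transporter, was at 10.94, 11.03 and 11.08, with the 30-week array lowest of the 3. The catalytic subunit of glutathione synthesis GCLC was at 10.18, 9.99 and 10.12. Its modifier GCLM was at 8.69, 8.30 and 8.11, a difference of 0.48 that lies above the list median (adjusted p = 0.359). NFE2L2, which encodes NRF2, was at 9.84 at 30 weeks and at 9.28 and 9.65 later, inside the spread of RWPE-1 at 9.18 to 9.84. Its partner MAFG was at 9.37 against 8.63 and 8.60 later (adjusted p = 0.104). Of 9 measured NRF2 regulators and partners 0 were called, with 3 higher at an unadjusted p under 0.05, against 5.73% of all genes. Of these 9 genes 6 lay above both later arrays and 3 below both, against 36.1% and 37.7% of all genes.

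**Figure D2:**
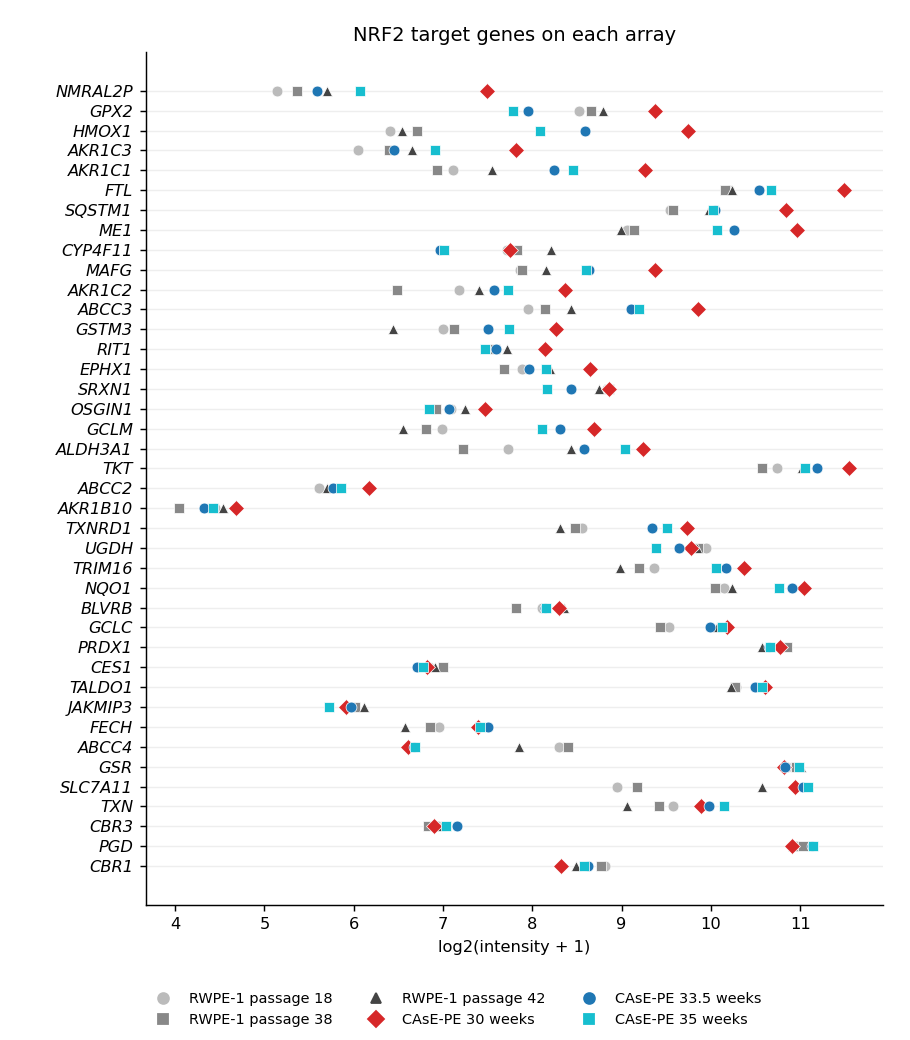
Level of the 40 measured NRF2 targets (x axis, log2(intensity + 1)) on each array, ordered by the difference between 30 weeks and the later mean. The 30-week array (red diamonds) lies above both later arrays in 31 genes, and HMOX1 is at 9.74 on it against 8.59 and 8.09.

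Promoter windows show which of these genes carry the letters of the NRF2 site close to their start. The windows, from RefSeq on GRCh38.p14, run from 250 bases before to 50 after each start, and 30 of the 40 targets have one. The core of the antioxidant response element was searched as TGACNNNGC on both strands. It was found in windows of 11 targets, 36.7% of the 30, against 16.1% of all genes and 13.3% of all windows. The windows of 3 targets that hold it are shown 5′ to 3′ on the strand of the gene, all on the minus strand, because they span a called gene, a gene that narrowly missed the threshold and a gene further from it. The match is in capitals. The GPX2 window is chr14:64942696-64942995, that of ME1 chr6:83431002-83431301 and that of GCLM chr1:93909381-93909680.
GPX2: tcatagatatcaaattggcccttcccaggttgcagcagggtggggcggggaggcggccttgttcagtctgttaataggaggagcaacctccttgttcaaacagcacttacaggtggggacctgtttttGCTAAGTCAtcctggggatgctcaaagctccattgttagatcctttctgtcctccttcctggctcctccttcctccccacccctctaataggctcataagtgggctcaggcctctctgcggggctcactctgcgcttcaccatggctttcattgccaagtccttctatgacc
ME1: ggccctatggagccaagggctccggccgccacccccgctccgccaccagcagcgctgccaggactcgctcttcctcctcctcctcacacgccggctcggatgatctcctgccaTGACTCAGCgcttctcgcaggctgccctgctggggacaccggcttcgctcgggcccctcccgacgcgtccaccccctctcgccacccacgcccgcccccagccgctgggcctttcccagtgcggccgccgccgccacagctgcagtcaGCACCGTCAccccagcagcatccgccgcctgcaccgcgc
GCLM: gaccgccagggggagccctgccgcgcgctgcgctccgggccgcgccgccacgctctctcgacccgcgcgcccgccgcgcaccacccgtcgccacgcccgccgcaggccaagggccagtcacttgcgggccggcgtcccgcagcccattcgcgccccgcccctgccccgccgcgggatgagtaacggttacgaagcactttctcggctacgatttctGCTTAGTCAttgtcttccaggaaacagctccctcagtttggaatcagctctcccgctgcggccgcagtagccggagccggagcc
The match begins at -122 from the start in GPX2, at -34 in GCLM and at -137 and 11 in ME1. The targets with a match had a median difference of 0.31 between 30 weeks and the later mean, and those whose windows lack these letters 0.52. The 3 shown all lie above the first of these medians. Of the targets with a match, CBR1 (-0.28), PGD (-0.23), ABCC4 (-0.07) and FECH (-0.06) were lower at 30 weeks and the rest higher. Among those without a match TXN (-0.18) was the only lower one. Of the called targets besides GPX2, FTL has a window without a match, and HMOX1 and NMRAL2P have no window. A match is a description of the letters and says nothing of binding.

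Genes of haem and iron handling outside the NRF2 response did not follow HMOX1. UROS, the uroporphyrinogen III synthase of haem synthesis on chromosome 10, was at 7.06 at 30 weeks against 8.41 and 8.40 later and 8.92, 8.84 and 8.55 in RWPE-1. It lay 1.35 ± 0.18 below the later mean (adjusted p = 0.0267, and 0.0572 without passage 38). Its call was lost without either later array as well. Over the list of 20 measured genes the median difference was -0.10, with 2 called higher, HMOX1 and FTL, and UROS called lower. AQP3, a glycerol channel that also passes arsenite, was at 8.96 at 30 weeks against 7.72 and 7.88 later and 8.01, 7.76 and 8.39 in RWPE-1 (difference 1.16 ± 0.23, adjusted p = 0.0822). AQP3 stood apart, and it was the single member of the 13 arsenic handling genes to do so, with 0 called by limma and 3 higher at an unadjusted p under 0.05. Of 14 metallothioneins and metal transporters 0 were called and 1 was higher at that level. Over all genes 0.223% were called higher and 0.244% lower, and 5.73% were higher at the unadjusted level.

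Squamous regulators lay above their later levels at 30 weeks, while their late product CASP14 lay below. Of 22 measured regulators 20 lay above both later arrays and 0 below both, against 36.1% and 37.7% of all genes, with a median difference of 0.22. ZNF750, a zinc finger factor of terminal epidermal differentiation on chromosome 17, was at 8.99 at 30 weeks, 6.40 at 33.5 weeks and 6.69 at 35 weeks, against 6.16, 6.22 and 6.65 in RWPE-1. The later arrays overlapped the untreated line, and the 30-week array stood 2.45 ± 0.23 above the later mean, 4.92-fold above the nearer later array (adjusted p = 0.0096). Its call was lost without either later array and with weeks as a linear term. Over all settings its adjusted p in limma ranged from 0.00108 to 0.0888, the highest with weeks as a linear term. It was the 1 regulator called, and 6 were higher and 0 lower at an unadjusted p under 0.05. Of all genes 0.223% were called higher, and 5.73% were higher and 6.58% lower at the unadjusted level.

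Among Notch genes, the receptors NOTCH1 and NOTCH3 and the targets HES1 and NRARP lay above both later arrays at 30 weeks, and NRARP was called. NOTCH1 was at 10.16 at 30 weeks against 9.05 on each later array, and at 8.98, 8.85 and 9.85 in RWPE-1. Passage 42 lay near the 30-week value, and the gene was not called (difference 1.11 ± 0.35, adjusted p = 0.225). NOTCH3 was at 9.0 against 7.86 and 8.13 later, above the RWPE-1 values of 7.40 to 7.77 (adjusted p = 0.0822). The Notch target HES1 was at 9.87 against 8.90 and 9.07 (adjusted p = 0.243). NRARP, a target that feeds back on the Notch complex, was at 8.74 at 30 weeks against 7.66 and 7.69 later and 7.57, 7.56 and 7.58 in RWPE-1. Its 5 other arrays were within a narrow band, and it was the 1 called gene of 28 in a Notch list drawn up after values were seen (difference 1.07 ± 0.14, adjusted p = 0.0267; 0.152 without the 33.5-week array, 0.138 without the 35-week array and 0.0608 without passage 38). Over that list 18 genes lay above both later arrays and 6 below both, against 36.1% and 37.7% of all genes. The share of all genes called higher was 0.223%.

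CASP14, the caspase of cornifying keratinocytes, was at 8.38 at 30 weeks, 9.94 at 33.5 weeks and 10.73 at 35 weeks, against 6.07, 5.35 and 5.27 in RWPE-1. All CAsE-PE arrays lay above RWPE-1 and the 30-week array lowest of the 3. The difference from the later mean was -1.95 ± 0.38, and 0.0717 was the adjusted p, so the gene was not called although it stood apart. Over the settings tried its adjusted p ranged from 0.00916, with the CAsE-PE arrays alone, to 0.251, without the 35-week array. S100A8, a calcium-binding protein of stressed epithelium and of myeloid cells, went the other way with 8.72 at 30 weeks against 6.60 and 7.46 later and 6.22 to 7.34 in RWPE-1 (adjusted p = 0.153). Over all 69 cornified envelope and barrier genes, CASP14 and S100A8 included, 29 lay above both later arrays, 23 below both, the median difference was 0.01 and 0 were called, with 10 higher and 5 lower at an unadjusted p under 0.05. Of 9 measured caspases, 0 lay above both later arrays and 6 below both, CASP14 among them. Of all genes 36.1% lay above both later arrays and 37.7% below both, which the counts of the cornified envelope list are near. At an unadjusted p under 0.05, 14.5% of that list were higher and 7.25% lower, against 5.73% and 6.58% of all genes.

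Of the basal markers KRT14, the partner of keratin 5, was called. It was at 10.18 at 30 weeks, 8.72 at 33.5 weeks and 9.09 at 35 weeks, against 11.12, 10.81 and 10.84 in RWPE-1. Every CAsE-PE array lay below the untreated line, and the 30-week array was nearest to it, 1.27 ± 0.20 above the later mean (adjusted p = 0.0415; 0.214 without the 33.5-week array, 0.119 without the 35-week array and 0.0744 without passage 38). EHF, an epithelial ETS factor, had the same order at 8.42, 6.89 and 7.50 against 10.02 to 10.04 in RWPE-1 (adjusted p = 0.0611). Of the luminal list STEAP2, a metalloreductase, was called lower, at 6.16 at 30 weeks against 7.11 and 7.34 later and 7.71 to 7.92 in RWPE-1 (difference -1.06 ± 0.17, adjusted p = 0.0407; 0.145 without the 33.5-week array, 0.185 without the 35-week array and 0.0826 without passage 38). FN1, the matrix protein fibronectin, was at 8.90 at 30 weeks against 10.52 and 10.01 later and 9.94 to 10.87 in RWPE-1, lower than on all other arrays but not called (adjusted p = 0.151). Of 31 measured mesenchymal genes 0 were called, with 3 higher and 1 lower at an unadjusted p under 0.05 and a median difference of 0.05.

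Cell cycle genes split by phase. In a division of the list into 18 DNA replication and 26 mitosis genes that was made after values were seen, 15 replication genes lay below both later arrays at 30 weeks and 2 above, while 24 mitosis genes lay above both and 1 below. Of all genes 37.7% lay below both later arrays and 36.1% above both. The median difference was -0.54 for replication and 0.39 for mitosis. It moved to 0.24 for mitosis without the 35-week array, since the mitosis genes were also higher at 33.5 than at 35 weeks, by a median of 0.21. Relative to RWPE-1 the replication genes had a median of -0.29 at 30 weeks, 0.15 at 33.5 weeks and 0.24 at 35 weeks. MCM3, a subunit of the replicative helicase, was at 9.34 at 30 weeks against 10.25 and 10.36 later and 10.16, 10.14 and 9.99 in RWPE-1. It was the 1 called member and lay 0.96 ± 0.15 below the later mean (adjusted p = 0.0407, with 0.0862 without passage 38 and 0.0514 without passage 18). Its call was lost without either later array as well. CDC45, the helicase activator, was at 8.34 against 9.34 and 9.18 later (adjusted p = 0.0543), inside the RWPE-1 range of 8.17 to 8.40. CHAF1B, a subunit of the chromatin assembly factor that follows the replication fork, was at 8.05 against 8.93 and 9.10 and was called (difference -0.97 ± 0.15, adjusted p = 0.0407; 0.166 without the 33.5-week array, 0.192 without the 35-week array and 0.0833 without passage 38). Among mitosis genes HMMR, a spindle protein, was at 9.87 against 9.08 and 9.07 later and 8.03 to 8.25 in RWPE-1 (adjusted p = 0.0749). TOP2A, which untangles mitotic chromosomes, was at 10.78 against 10.10 and 10.03 (adjusted p = 0.113). Of the 26 mitosis genes 0 were called by limma, with 14 higher and 0 lower at an unadjusted p under 0.05, and of the 18 replication genes 0 were higher and 12 lower at that level. Of all genes 5.73% were higher and 6.58% lower at that level.

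**Figure D3:**
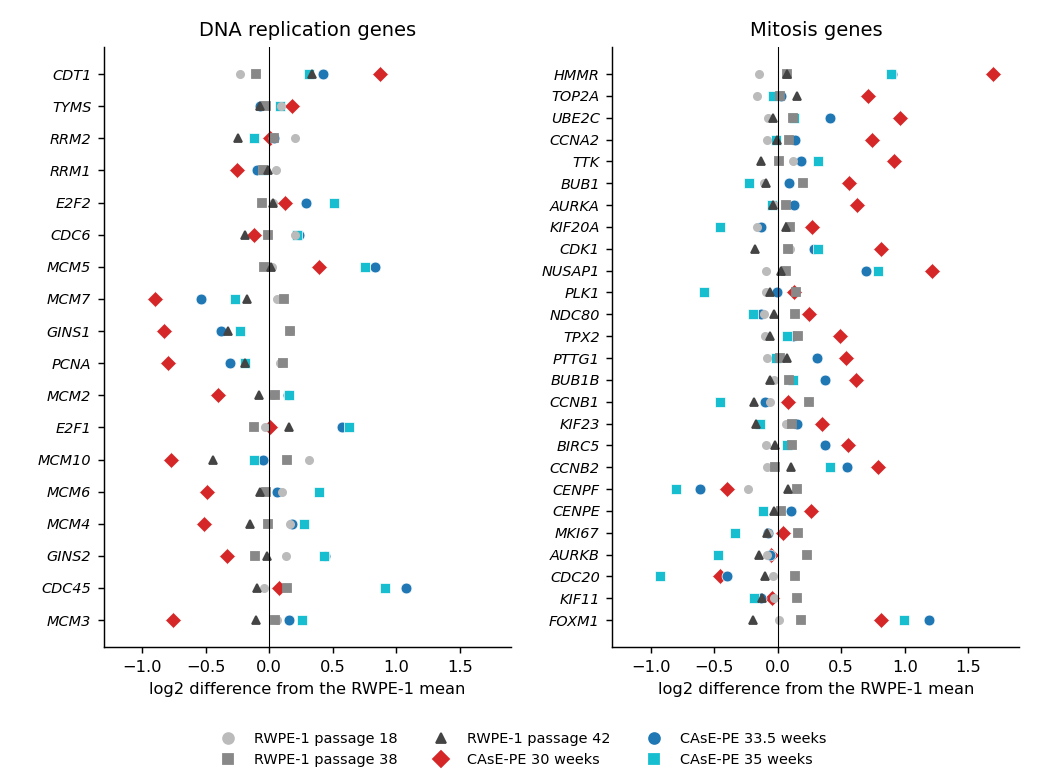
Difference of each array from the RWPE-1 mean (x axis, log2) for 18 DNA replication genes (left) and 26 mitosis genes (right), ordered by the difference between 30 weeks and the later mean. The 30-week array lies below both later arrays in 15 replication genes and above both in 24 mitosis genes.

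CCNA1, cyclin A1, is best known from male germ cells, and it was the 1 called gene of 18 in the list of G1 cyclins, CCNA1 and CDK inhibitors. Its level was 9.30 at 30 weeks against 7.43 and 7.45 later and 6.85, 6.67 and 7.03 in RWPE-1. The 30-week array stood 1.86 ± 0.17 above the later mean, while the later arrays lay close together and above RWPE-1 (adjusted p = 0.0096; 0.087 without the 33.5-week array and 0.0813 without the 35-week array). It lies on chromosome 13 in a window of 25 genes whose median difference was 0.31. CDKN1A, the p21 inhibitor and a p53 target, was at 9.41 against 8.50 and 8.57 later and 8.52 to 9.14 in RWPE-1 (adjusted p = 0.159).

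The p53 targets lay above their later levels as a group, with 0 of 22 called by limma and 10 higher and 2 lower at an unadjusted p under 0.05. Of all genes 5.73% were higher and 6.58% lower at that level. At 30 weeks 20 of the 22 were above both later arrays and 2 below both, against 36.1% and 37.7% of all genes, with a median difference of 0.42 and a range over the settings of 0.39 to 0.50. Their medians relative to RWPE-1 were 0.33 at 30 weeks, -0.18 at 33.5 weeks, -0.07 at 35 weeks and 0.13 at passage 42. TP53INP1, a stress protein of autophagy and cell death, was at 7.84 against 6.60 and 6.70 later and 6.73, 6.84 and 7.25 in RWPE-1 (difference 1.20 ± 0.21, adjusted p = 0.0543). The exception with the largest gap was the lysosomal fucosidase FUCA1, at 7.89 against 8.50 and 8.67 (adjusted p = 0.121). PPP1R15A, which restores translation after eIF2α phosphorylation, was at 9.33 against 8.23 and 7.93 later, with passage 42 at 8.99 and the other RWPE-1 arrays at 8.17 and 8.06 (adjusted p = 0.159). It was the 1 gene of 31 in the ATF4 and unfolded protein response list to stand apart, and 0 were called, with 4 higher at an unadjusted p under 0.05. For this list all CAsE-PE arrays lay above RWPE-1 by similar medians, 0.66, 0.60 and 0.52 at 30, 33.5 and 35 weeks.

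Among the genes that differed most at 30 weeks, several belong to no common pathway. DMGDH, the mitochondrial dimethylglycine dehydrogenase, was at 6.88 at 30 weeks against 5.09 and 4.97 later and 4.86 to 5.28 in RWPE-1 (difference 1.85 ± 0.19, adjusted p = 0.015). SEC24D, a COPII coat subunit of secretory vesicles, was at 9.20 against 7.81 and 7.56 later and 7.47 to 7.81 in RWPE-1 (difference 1.52 ± 0.18, adjusted p = 0.022). EDIL3, a secreted integrin ligand, was at 6.67 against 4.70 and 5.08 later and 5.14 to 5.93 in RWPE-1 (difference 1.78 ± 0.29, adjusted p = 0.0491). In these 3 genes the 30-week array was the highest of all 6. GALC, the lysosomal galactosylceramidase, had another pattern: 6.49 at 30 weeks, 5.09 and 4.91 later and 7.19 to 7.38 in RWPE-1, so that the 30-week array lay between the later arrays and the untreated line (difference 1.49 ± 0.16, adjusted p = 0.015). Without the 33.5-week array the adjusted p of these 4 genes and CCNA1 lay between 0.087 and 0.247, and without the 35-week array between 0.0813 and 0.152. Without passage 38 it was 0.0572 for both SEC24D and EDIL3. INPP5D, an inositol phosphatase, was at 9.26 against 7.21 and 7.78 later, but at 8.32, 8.61 and 9.40 in RWPE-1, so passage 42 exceeded it (adjusted p = 0.105). The zinc finger gene ZC3H6 was at 8.40 against 6.52 and 6.74 later and 5.6, 5.85 and 6.79 in RWPE-1 (adjusted p = 0.107).

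The largest difference of all genes was that of SULT1E1, the oestrogen sulfotransferase. It was at 6.68 at 30 weeks, 9.80 at 33.5 weeks and 10.27 at 35 weeks, against 7.35, 7.01 and 9.08 in RWPE-1. The 30-week array was the lowest of the 6 and the later arrays the highest, with a difference of -3.35 ± 0.68, 8.66-fold to the nearer later array. RWPE-1 itself ran from 7.01 to 9.08, and the gene was not called (adjusted p = 0.0855, and from 0.000623 to 0.304 over the settings tried). SULT1B1, a relative on the same chromosome 4, was at 3.92 against 5.72 and 5.26 later and 4.26 to 4.49 in RWPE-1, all dim, and was called (difference -1.57 ± 0.21, adjusted p = 0.0267; 0.114 without the 33.5-week array, 0.0813 without the 35-week array and 0.0572 without passage 38). The other 8 measured cytosolic sulfotransferases were not called, which is near the all-gene shares of 0.223% called higher and 0.244% lower.

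Several genes were higher on both later arrays than on all other arrays. RXFP1, the receptor of the hormone relaxin, was at 4.22 at 30 weeks, 6.21 at 33.5 weeks and 6.51 at 35 weeks, against 4.07, 4.14 and 4.09 in RWPE-1. It was dim on 4 arrays and brighter on the later arrays alone, and fell by 2.14 ± 0.16 at 30 weeks relative to them (adjusted p = 0.00515; 0.0439 without the 33.5-week array and 0.0813 without the 35-week array). Of the other 8 relaxin receptors and ligands 0 were called, which is near the all-gene shares of 0.223% called higher and 0.244% lower. PRTG, a cell surface protein of the immunoglobulin superfamily, was at 5.62 against 7.09 and 7.34 later and 5.33 to 5.46 in RWPE-1 (difference -1.59 ± 0.16, adjusted p = 0.0134). ANKRD22, an ankyrin repeat gene, was at 5.38 against 7.19 and 7.30 later and 5.79 to 5.83 in RWPE-1 (difference -1.87 ± 0.14, adjusted p = 0.00515). STC1, the secreted glycoprotein stanniocalcin 1, was at 6.27 against 7.80 and 7.90 later and 5.26 to 5.79 in RWPE-1, so all CAsE-PE arrays lay above the untreated line (difference -1.58 ± 0.22, adjusted p = 0.0307).

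Another group of genes was lower at 30 weeks than on all other arrays. GALNT13, which starts mucin-type glycans, was at 6.14 at 30 weeks against 7.69 and 7.85 later and 7.88 to 8.01 in RWPE-1 (difference -1.64 ± 0.15, adjusted p = 0.0096). MCOLN3, an endolysosomal cation channel, was at 6.13 against 7.72 and 7.66 later and 7.95 to 8.16 in RWPE-1 (difference -1.57 ± 0.15, adjusted p = 0.0109). PYGO1, a coactivator of Wnt signalling, was at 5.22 against 7.16 and 7.24 later and 6.34 to 6.88 in RWPE-1 (difference -1.98 ± 0.22, adjusted p = 0.0176). PNLDC1, a nuclease that trims piRNAs, was at 6.88 against 8.60 and 8.37 later and 9.13 to 9.48 in RWPE-1 (difference -1.60 ± 0.19, adjusted p = 0.0206). The later arrays lay just below the RWPE-1 range for GALNT13 and MCOLN3, above it for PYGO1 and well below it for PNLDC1. Without the 33.5-week array the adjusted p of these 4 and of PRTG, ANKRD22 and STC1 lay between 0.07 and 0.166, and without the 35-week array between 0.0813 and 0.157. Without passage 38 it was 0.0514 for PNLDC1 and 0.0572 for STC1.

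**Figure D4:**
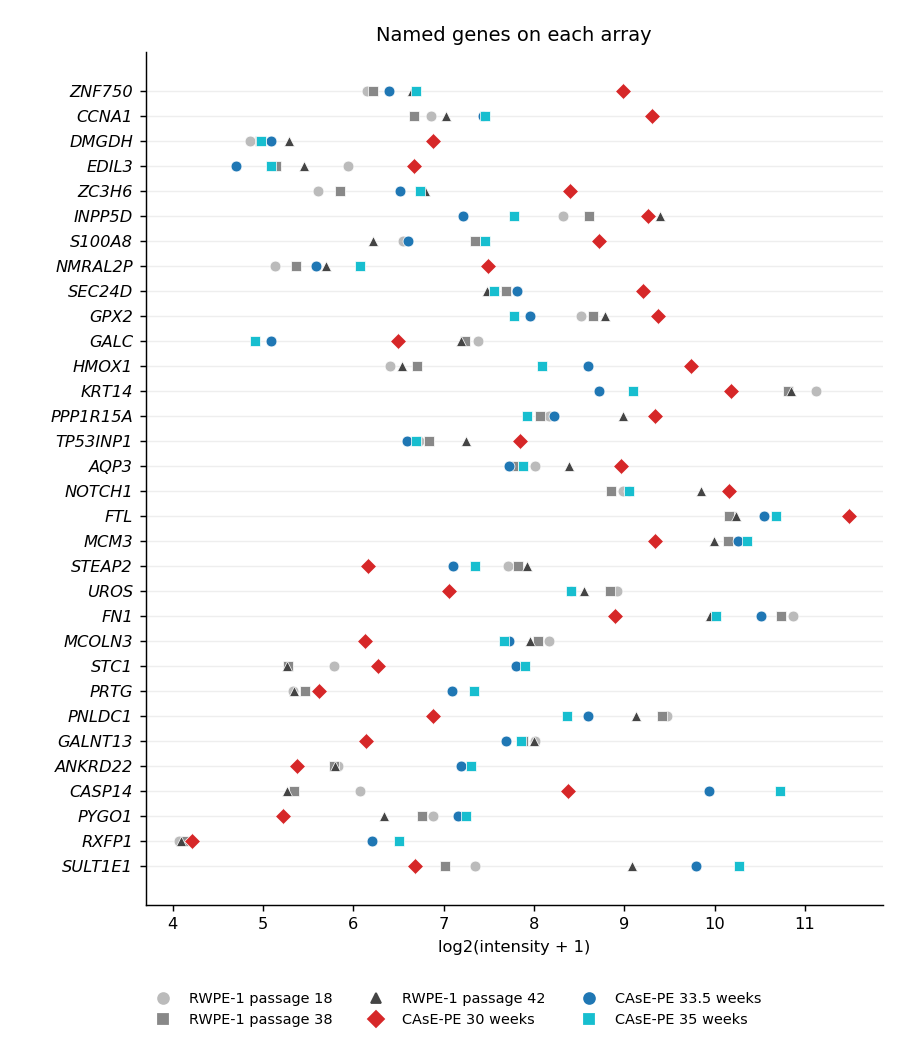
Level of the 32 named genes (x axis, log2(intensity + 1)) on each array, ordered by the difference between 30 weeks and the later mean. The 30-week array (red diamonds) lies 2.45 above the later mean in ZNF750 at the top and differs from it by -3.35 in SULT1E1 at the bottom, where passage 42 is also far from the other RWPE-1 arrays.

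Part of the 30-week difference was shared by neighbouring genes. Only genes outside the dimmest 33.3% were used here. By chromosome, their median difference was -0.14 on X, 0.21 on 13 and 0.21 on 14, and between -0.06 and 0.02 on the others. The same genes were then put into 478 windows of 25 neighbours, ordered by the RefSeq table of GRCh38.p14. Between the later arrays no window median exceeded 0.253 in size. Between 30 weeks and the later mean 17 windows did, 9 higher and 8 lower, from -0.63 to 0.39. Of these windows 6 lie next to each other at one end of X and 6 on chromosomes 13 and 14. The highest median, 0.39, was that of the window from NIPA1 to ARHGAP11B on chromosome 15, where 15 of 25 genes were higher at 30 weeks. Relative to RWPE-1 this window had a median of 0.88 at 30 weeks, 0.46 at 33.5 weeks and 0.80 at 35 weeks, so the 35-week array lay near the 30-week one.

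The stretches described next were drawn from these windows after their medians were seen. On X, 150 genes from PLCXD1 to MSN had a median difference of -0.40, and 126 of them were lower at 30 weeks. Relative to RWPE-1 their median was -0.46 at 30 weeks, -0.02 at 33.5 weeks and -0.05 at 35 weeks, so the 30-week array was the one away from the untreated line. The other 175 genes in windows of X, from YIPF6 to ARHGAP4, had a median of -0.02. POLA1, the catalytic subunit of DNA polymerase alpha, lies in the lower stretch and was at 7.48 at 30 weeks against 8.69 and 8.90 later and 8.37 to 8.66 in RWPE-1 (difference -1.31 ± 0.17, adjusted p = 0.0267). APOO, a mitochondrial inner membrane protein, was at 8.60 against 9.81 and 9.98 later and 9.43 to 9.69 in RWPE-1 (difference -1.3 ± 0.17, adjusted p = 0.0267). MID1, a microtubule-bound ubiquitin ligase, was at 7.91 against 9.09 and 9.18 later and 9.02 to 9.18 in RWPE-1 (difference -1.22 ± 0.15, adjusted p = 0.022). For these 3 genes the adjusted p was at least 0.114 without the 33.5-week array, 0.128 without the 35-week array and 0.0572 without passage 38. In all, 7 of the 150 genes were called, each lower, against 0.244% of all genes called lower. The stretch was drawn from windows with low medians, so lower calls in it follow in part from that choice. BGN, the proteoglycan biglycan, stood out against the rest of X, at 10.31 against 8.33 and 9.15 later and 7.61 to 8.07 in RWPE-1 (adjusted p = 0.0796).

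On chromosome 13, 125 genes from BAGE5 to POU4F1 had a median difference of 0.22, with 104 higher at 30 weeks. On chromosome 14, 250 genes from TTC5 to ERG28 had one of 0.23, with 201 higher. The later arrays were at the untreated level over both stretches, with medians between -0.03 and 0.02 from the RWPE-1 mean, while the 30-week array had 0.28 and 0.25. Chromosome 4 from CAMK2D to HELT gave 0.19 over 125 genes, 102 of them higher, and chromosome 9 from WASHC1 to NUDT2 gave 0.19 over 75 genes. SEC24D lies in the first of these and AQP3 in the second. Elsewhere the later arrays were the ones away from RWPE-1. On chromosome 5, 50 genes from PLEKHG4B to GOLPH3 had a median of 0.27 and 0.28 on the later arrays and -0.08 at 30 weeks, relative to RWPE-1. On chromosome 9, 75 genes from CDC14B to MIR147A had 0.34 and 0.35 later and 0.10 at 30 weeks. These shifts are small beside the differences of some genes in them: CCNA1 differed by 1.86 in a window of 0.31, and GPX2 by 1.5 in a window of 0.25. For others the window shift was a larger part of the difference. ATG14 differed by 0.92 in a window of 0.30. On X, APOO differed by -1.3 in a window of -0.63, and POLA1 by -1.31 in a window of -0.55. The part of the shared shift in the difference of each gene was not tested.

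**Figure D5:**
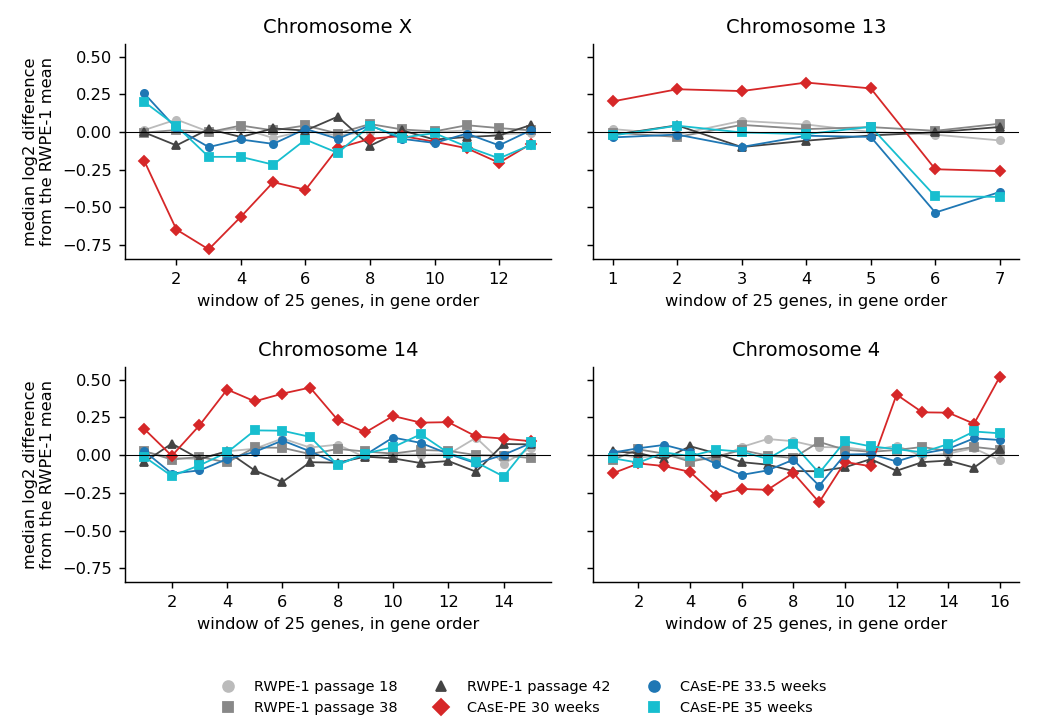
Median difference from the RWPE-1 mean (y axis, log2) over windows of 25 neighbouring genes (x axis, window number in gene order) on chromosomes X, 13, 14 and 4, for each array. The 30-week array (red diamonds) leaves the other arrays over the first windows of X, downwards, and over most windows of 13 and 14, upwards.

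A few families were examined after their members were seen among the called genes, so their counts of calls follow in part from that choice. Of all genes 0.223% were called higher. Of 19 H2B histone genes 2 were called, both higher. H2BC5 was at 8.85 at 30 weeks against 7.48 and 7.30 later and 6.94 to 7.21 in RWPE-1 (difference 1.46 ± 0.17, adjusted p = 0.0202), and H2BC21 at 9.85 against 8.84 and 8.60 later and 7.61 to 7.75 in RWPE-1 (difference 1.13 ± 0.16, adjusted p = 0.0307). Both calls were lost without either later array, with an adjusted p of 0.103 and 0.114 without the 33.5-week array and of 0.119 and 0.157 without the 35-week array. Without passage 38 it was 0.0513 and 0.0688. Histone genes of this family are close copies, so their probes may share signal. Of 20 SNORD115 small nucleolar RNA genes on chromosome 15 3 were called higher, such as SNORD115-32 at 5.45 against 3.67 and 4.09 later (adjusted p = 0.022; 0.103 without the 33.5-week array, 0.0813 without the 35-week array and 0.0513 without passage 38), all dim values of near-identical copies. The 20 SNORD116 genes beside them had a median difference of 0.75, but the later arrays differed from each other by as much, with a median of -0.73. CYP1A1, the target of the aryl hydrocarbon receptor, was at 7.28 against 6.15 and 6.0 later and 6.06 to 6.42 in RWPE-1 (difference 1.21 ± 0.18, adjusted p = 0.0366; 0.166 without the 33.5-week array, 0.177 without the 35-week array and 0.0725 without passage 38). The clock repressors NR1D1 and NR1D2 stood apart without a call: NR1D2 was at 8.88 against 7.84 and 7.53 later, with passage 42 at 9.01 and the other RWPE-1 arrays at 7.89 and 8.33 (adjusted p = 0.222).

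In the remaining lists 0 genes were called by limma unless stated, and counts at an unadjusted p under 0.05 are given beside them. Of all genes 0.223% were called higher and 0.244% lower. At the unadjusted level 5.73% of all genes were higher and 6.58% lower. Of 36 interferon response genes 3 were higher and 4 lower at that level, with a median difference of 0.01, and all CAsE-PE arrays lay below RWPE-1, with medians of -0.73, -0.86 and -0.88 at 30, 33.5 and 35 weeks. The median difference was -0.02 over 20 heat shock genes (1 higher), 0.14 over 36 cytokines and chemokines (5 higher) and 0.11 over 30 RAS-MAPK feedback and immediate early genes (5 higher). It was -0.03 over 27 genes of sterol and fatty acid synthesis (1 higher, 4 lower), -0.13 over 29 of hypoxia and glycolysis (1 lower) and -0.07 over 21 matrix proteases and inhibitors (2 higher, 3 lower). It was 0.10 over 20 junction genes (2 higher, 1 lower), 0.02 over 13 stem cell genes (2 higher) and 0.10 over 22 ribosomal protein genes (1 higher, 1 lower). Of 38 autophagy genes, a list drawn up after values were seen, 7 were higher and 3 lower, and ATG14, a subunit of the lipid kinase that starts autophagosomes, was called. It was at 8.58 at 30 weeks against 7.66 and 7.65 later and 7.31 to 7.38 in RWPE-1 (adjusted p = 0.0366; 0.204 without the 33.5-week array, 0.168 without the 35-week array and 0.0826 without passage 38), and it lies on chromosome 14 in a window with a median difference of 0.30. Of 20 genes of the methylation machinery 14 lay below both later arrays and 3 above, against 37.7% and 36.1% of all genes, while 2 were lower at an unadjusted p under 0.05. UHRF1, which guides maintenance methylation in replicating cells, had the largest gap of that list, at 8.65 against 9.57 and 9.59 later and 9.11 to 9.49 in RWPE-1 (adjusted p = 0.0804).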

How the data were processed

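Total RNA was hybridised to 6 single-colour arrays, and the deposited values are 1 linear intensity per feature and array for 33252 features. How they were summarised and normalised is not given in the sources used here. Values were turned into log2(intensity + 1), and fold changes of dim genes are understated. By the platform annotation 19460 features carry 1 gene symbol and 1754 carry several, while 12038 stayed unnamed. The brightest single-symbol feature stood for each of 18417 genes. RefSeq (GRCh38.p14) gave chromosome and order. limma 3.58.1 in R 4.3.3 (lmFit, eBayes, two-sided) compared 30 weeks with the mean of both later arrays over 3 groups, with Benjamini-Hochberg adjustment over all genes. Named genes were the 10 highest and 10 lowest that stood apart, up to 4 per direction and list among genes called or standing apart, and 6 markers. Further genes, 6 lists, 3 gene families and the stretches were chosen after values were seen. The members and all lists were chosen with earlier results of these data known. The steps were tested on simulated data. Alternatives covered normalisation, filters, pseudocount, variance models, the CAsE-PE arrays alone, weeks as a linear term and each array left out. The number of arrays limits the precision.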

Additional observations from a re-analysis of the deposited data

How the results depend on the processing

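No paired analysis was possible because the labels give the groups no shared replicate numbers. Of 41 genes called higher and 45 lower, quantile normalisation gave 25 and 28, robust variances 62 and 72, the CAsE-PE arrays alone 282 and 328, and weeks as a linear term 14 and 20. Leaving out the dimmest 33.3% gave 25 higher, and an unadjusted p 1055 higher and 1212 lower. With 1 array left out, calls ranged from 0 to 298 higher and from 0 to 359 lower; the highest counts came without passage 42 and the lowest without the 35-week array. Of the 86 called genes, 52 stayed called after quantile normalisation, 81 after centring on array medians and 86 with the CAsE-PE arrays alone, which leave 1 residual degree of freedom, while 21 did with weeks as a linear term. The call of SULT1B1 was lost with a pseudocount of 16 (adjusted p = 0.0516). The genes standing apart, 61 higher and 50 lower, became 301 and 352 at a 1.5-fold limit. With 1 later array left out they were 78 to 142 higher and 71 to 109 lower, the highest without the 35-week and the 33.5-week array respectively, where the rule on the later gap no longer applies. The mitosis median of 0.39 was 0.24 without the 35-week and 0.49 without the 33.5-week array. Of 41 list medians, 3 turned sign after centring, 1 after quantile normalisation and 4 each with the dimmest 33.3% left out, without the 33.5-week array and without the 35-week array. The glutathione peroxidases went from 0.09 to -0.09 with the dimmest genes left out, and sterol and fatty acid synthesis from -0.03 to 0.08 without the 33.5-week array. All 32 named genes kept their direction in every setting that held them. The call of EDIL3 was also lost, at adjusted p of 0.0506 to 0.0592, with centring, a pseudocount of 16 and robust variances. The cause of each difference was not tested. Dim genes and close copies are the least certain values.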
